A study of Mus musculus with 12 samples.

Results

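The SLC25 family of mitochondrial solute carriers was followed through gastrocnemius muscle, a calf muscle of the mouse hind limb, as the 36 genes of the deposited expression table whose symbols begin with Slc25a and a number. The table lists 10475 genes, of which 10415 were tested, and the 36 carriers were all among those tested. Muscle came from 8-week-old C57BL/6 mice on chow in a cycle of 12 h light and 12 h dark. The groups were wild type (WT) and transgenic (TG), the latter overexpressing E4BP4 specifically in liver. E4BP4, encoded by Nfil3, is a transcriptional repressor tied to the circadian clock. Sampling took place at lights on, Zeitgeber time (ZT) 0, and at lights off, ZT12. Each of the 4 groups had 3 poly(A) RNA libraries. The labels name no promoter for the transgene, no sex and no batch. They do not say whether each library is a separate animal, so the p-values below measure the spread between libraries, which may be technical.

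Most SLC25 proteins span the inner membrane of mitochondria, which most metabolites cannot cross unaided, and they commonly exchange a substrate of the matrix for a substrate of the cytosol. In muscle the ADP/ATP carrier and the phosphate carrier feed ATP synthase, and the aspartate/glutamate and oxoglutarate carriers belong to the malate-aspartate shuttle that moves reducing power into the matrix. Other members carry amino acids, carnitine esters, cofactors, nucleotides and iron. Slc25a30 (KMCP1) resembles the uncoupling proteins in sequence, and its substrates have been studied less.

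Depth was recovered from the deposited values as reads in the listed genes. It was 9213610 to 13149646 per library at ZT0, 17715778 to 20156713 for WT at ZT12 and 13126200 to 15780571 for TG at ZT12. Depth thus moved with time. WT ZT0 replicate 2 stood apart, with a median correlation with the other libraries of 0.945, against 0.975 for TG ZT12 replicate 1 and up to 0.985 for the others. It held the highest value of 9 of the 36 carriers, TG ZT12 replicate 2 that of 8, and TG ZT12 replicate 1 the lowest of 16. These shifts were not particular to the carriers. The median log2 deviation from each gene's mean was 0.30 over all genes and 0.18 over carriers in WT ZT0 replicate 2. In TG ZT12 replicate 1 it was -0.29 for both. The 7 muscle markers summed to between 78736 and 89614 TPM (transcript abundance scaled by length and depth), and 0 of 5 hepatocyte markers were in the table. Red cell markers, of which 5 of 7 were listed and Slc4a1 was not, summed to 86.2 to 163 TPM at ZT0. At ZT12 they summed to 1526, 4257 and 176 TPM in WT replicates 1 to 3 and to 2959, 4565 and 145 TPM in TG replicates 1 to 3. Nfil3 itself was at 17.2 ± 1.42 TPM (SD, n = 3) in WT and 16 ± 3.72 in TG at ZT0, and at 11.8 ± 3.79 and 13.5 ± 6.65 at ZT12. It was not called between the genotypes in muscle (log2 fold change over both times 0.01, limma adjusted p = 0.994).

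The stretches before the start sites of 4 carriers are shown here because these 4 had the smallest p-values of the family between the times of day. Each is the 250 bases before the annotated start in RefSeq on GRCm38.p6, written 5′ to 3′ on the gene's strand, with matches to searched motifs in capitals. The locations are chr14:75787038-75787287 (minus strand) for Slc25a30, chr12:108835877-108836126 (minus strand) for Slc25a29, chr2:32424067-32424316 (minus strand) for Slc25a25 and chr12:108850879-108851128 (plus strand) for Slc25a47.
Slc25a30: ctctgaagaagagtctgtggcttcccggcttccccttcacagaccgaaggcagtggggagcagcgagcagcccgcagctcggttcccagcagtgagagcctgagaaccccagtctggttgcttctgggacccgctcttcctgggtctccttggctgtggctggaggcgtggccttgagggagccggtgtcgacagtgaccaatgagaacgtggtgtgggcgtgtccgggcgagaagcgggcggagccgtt
Slc25a29: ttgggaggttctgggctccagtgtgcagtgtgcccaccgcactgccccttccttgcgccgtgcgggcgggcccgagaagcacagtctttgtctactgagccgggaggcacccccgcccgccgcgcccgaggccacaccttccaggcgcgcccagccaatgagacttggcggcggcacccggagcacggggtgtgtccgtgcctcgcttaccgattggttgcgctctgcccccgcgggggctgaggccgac
Slc25a25: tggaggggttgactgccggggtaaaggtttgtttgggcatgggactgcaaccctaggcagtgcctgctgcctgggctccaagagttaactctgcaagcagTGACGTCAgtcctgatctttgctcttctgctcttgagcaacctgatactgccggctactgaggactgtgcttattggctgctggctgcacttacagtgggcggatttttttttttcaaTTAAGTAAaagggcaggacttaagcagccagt
Slc25a47: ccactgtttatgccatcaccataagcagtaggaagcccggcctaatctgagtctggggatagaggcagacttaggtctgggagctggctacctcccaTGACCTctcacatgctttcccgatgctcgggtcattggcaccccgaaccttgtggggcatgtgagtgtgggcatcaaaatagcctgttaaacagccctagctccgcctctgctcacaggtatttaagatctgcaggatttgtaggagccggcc

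For these stretches, 6 motifs were searched on both strands, and the motifs and the window were chosen after the carriers' values had been seen. The letters were CACGTG (E-box), TTANGTAA (D-box, the kind of element E4BP4 binds), AGGTCA (core of the ROR element), GAANNTTC (heat shock element pair) and TGACGTCA (cAMP element), and the glucocorticoid element was searched as its full palindrome. Slc25a30 and Slc25a29 held none of the 6. Slc25a25 held a D-box match 32 bases and a cAMP element match 150 bases before its start, and Slc25a47 a ROR core match 153 bases before its start. Of all 32851 promoters of the same length, 2.06% held the D-box letters, 1.55% the cAMP element, 14% the ROR core, 6.02% the E-box, 6.69% the heat shock pair and 0.00913% the glucocorticoid element. Of the 36 carriers, 27 had a promoter in the table. Among their 35 promoters, 6 held the E-box, 1 the D-box, 3 the ROR core, 2 the cAMP element, and 0 the heat shock pair or the glucocorticoid element. A match describes letters in this window and shows no binding.

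The family was dominated by 1 gene. Slc25a4, the muscle ADP/ATP carrier ANT1, had a mean of 3314 TPM and made up 75.3 to 81.2% of the summed TPM of the 36 carriers in each library. Slc25a4 read 3489, 2982 and 3354 TPM for WT at ZT0, 3412, 3036 and 2961 for TG at ZT0, 3419, 3885 and 3275 for WT at ZT12 and 3762, 3349 and 2845 for TG at ZT12. The groups overlapped. Slc25a3, the phosphate carrier, read 388, 356 and 400 TPM for WT at ZT0, 437, 372 and 408 for TG at ZT0, 386, 455 and 406 for WT at ZT12 and 409, 476 and 374 for TG at ZT12. Slc25a11, the oxoglutarate/malate carrier, read 123, 128 and 125 TPM for WT at ZT0, 140, 134 and 130 for TG at ZT0, 129, 149 and 129 for WT at ZT12 and 138, 148 and 110 for TG at ZT12. Slc25a12 (aralar), the aspartate/glutamate carrier, read 117, 143 and 128 TPM for WT at ZT0, 149, 127 and 122 for TG at ZT0, 126, 142 and 112 for WT at ZT12 and 88.3, 167 and 120 for TG at ZT12. These 4 genes together took 91.2 to 94.9% of the family's TPM, and Slc25a11 and Slc25a12 did not differ beyond their spread. Slc25a39, needed for glutathione in mitochondria, followed, at 29.1, 32.7 and 29.8 TPM for WT at ZT0, 31.7, 31 and 32.5 for TG at ZT0, 32.7, 41.2 and 31 for WT at ZT12 and 34.3, 44 and 30.2 for TG at ZT12. The other 31 carriers had means below that of Slc25a39, down to Slc25a14 at the bottom (1.09 ± 0.182 TPM for WT at ZT0 and 1.34 ± 0.193 for WT at ZT12, SD, n = 3).

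**Figure D1:**
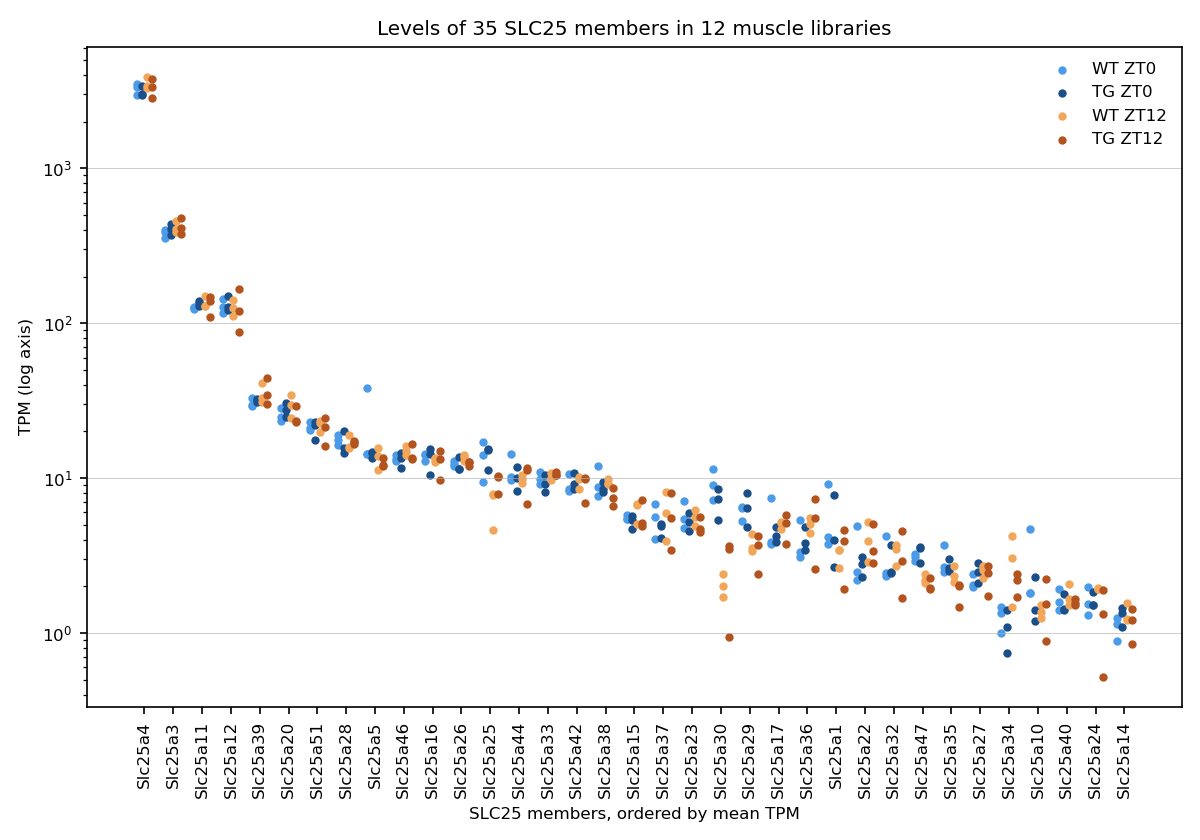
TPM of 35 of the 36 SLC25 carriers in 12 libraries on a log axis, ordered by mean and coloured by group, each point 1 library. Slc25a4 stands above the rest with a mean of 3314 TPM, and Slc25a30 is the member whose ZT12 points lie farthest under its ZT0 points.

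Few carriers differed between the times. Over both genotypes, 2 of 36 carriers fell between ZT0 and ZT12 and 0 rose (limma adjusted p under 0.05 over all genes), Slc25a30 and Slc25a29, against a background of 1.02% of all tested genes called, 0.614% lower and 0.403% higher. The median log2 fold change was 0.03 over the carriers and -0.03 over all tested genes, and 25 of 36 carriers lay within 0.25 of 0. The carriers came out at 19 higher and 17 lower, and 40.6% of all tested genes were higher. Every listed gene reached 1 TPM in WT ZT0 replicate 1. Genes low there and high at ZT12 can thus be missing from counts of higher and lower, here and below. A fold change here is on the scale of log2(TPM + 1), which understates the change of genes at low TPM. At an unadjusted p under 0.05 there were 6 carriers, against 7.35% of all tested genes.

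**Figure D2:**
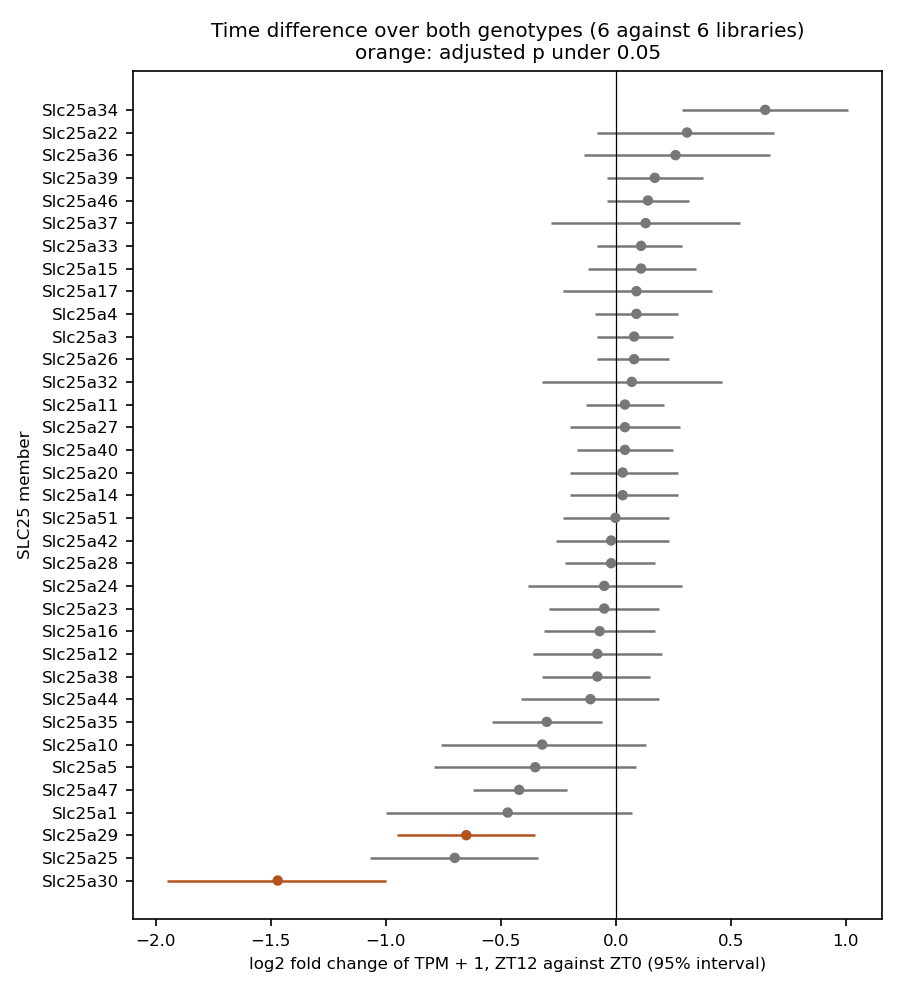
Log2 fold change of TPM + 1 at ZT12 against ZT0 over both genotypes for 35 of the 36 carriers, with 95% intervals from limma on 6 against 6 libraries. Slc25a30 lies at -1.47, the next lowest member at -0.70, and the called members Slc25a30 and Slc25a29 are in orange.

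Slc25a30 fell the most. It read 11.5, 9.01 and 7.24 TPM for WT at ZT0, 8.52, 5.32 and 7.29 for TG at ZT0, 1.70, 2.41 and 2.01 for WT at ZT12 and 0.941, 3.49 and 3.66 for TG at ZT12. All 6 libraries at ZT12 lay below all 6 at ZT0. The mean at ZT12 was 29.1% of that at ZT0 over both genotypes, 22.1% in WT and 38.3% in TG. The log2 fold change over both genotypes was -1.47 (SE 0.22, 95% interval -1.95 to -1.0, limma adjusted p = 0.00447). By p-value it ranked 34 of the 10415 tested genes, and by size 6 from the lowest change. These values rest on 110 to 217 reads per library at ZT0 and 29 to 113 at ZT12, although most ZT12 libraries were deeper. The part of depth in the TPM difference was not tested. In bulk muscle, fewer cells of a type and less RNA per cell cannot be told apart. The gene lies on the minus strand at chr14:75761999-75787037 (mm10) and shares no exon with another gene of GENCODE M21.

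Each genotype alone gave Slc25a30 the same direction without a call. The log2 fold change was -1.74 in WT (SE 0.31, limma adjusted p = 0.0635) and -1.21 in TG (SE 0.31, limma adjusted p = 0.339). The difference between the genotypes in this change was 0.53 (95% interval -0.41 to 1.47), which did not pass the test and leaves room for a sizeable difference either way. It rested in part on single libraries: it was 0.94 without TG ZT12 replicate 1, where the change in TG was -0.79, and 0.31 without TG ZT12 replicate 3. The call of Slc25a30 over both genotypes held under 22 of 23 alternatives (-1.87 to -0.83, adjusted p 0.0015 to 0.274). With TG ZT12 replicate 1 and WT ZT0 replicate 2 left out together, it was -1.27 (limma adjusted p = 0.00352). The call was lost with the red cell markers as a covariate, where the value was -1.32 and the limma adjusted p 0.274. Of the 6 libraries at ZT12, the 2 with red cell markers at the ZT0 level read 2.01 and 3.66 TPM and the 4 others 0.941 to 3.49, against 5.32 to 11.5 at ZT0.

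Set against the other 35 carriers, Slc25a30 sat near the middle of the family at ZT0 and lower at ZT12. Its log2(TPM + 1) minus the median of the other 35 was 0.43, -0.02 and -0.07 for WT at ZT0 and -0.14, -0.58 and -0.13 for TG at ZT0. At ZT12 it was -1.53, -1.42 and -1.54 in WT and -1.97, -1.10 and -0.85 in TG. The 2 times did not overlap. Its rank from the top ran from 15 to 23 at ZT0 and from 25 to 34 at ZT12, where TG replicates 2 and 3 ranked 28 and 25 and the other libraries 31 to 34, while the median of the other 35 stayed between 6.61 and 9.49 TPM. Without Slc25a30 the log2 fold changes of the carriers between the times had an SD of 0.26 and a lowest value of -0.70. Over the 12 libraries of both times together, Slc25a30 had the largest coefficient of variation of the carriers, 64.6%. That value includes its difference between the times.

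**Figure D3:**
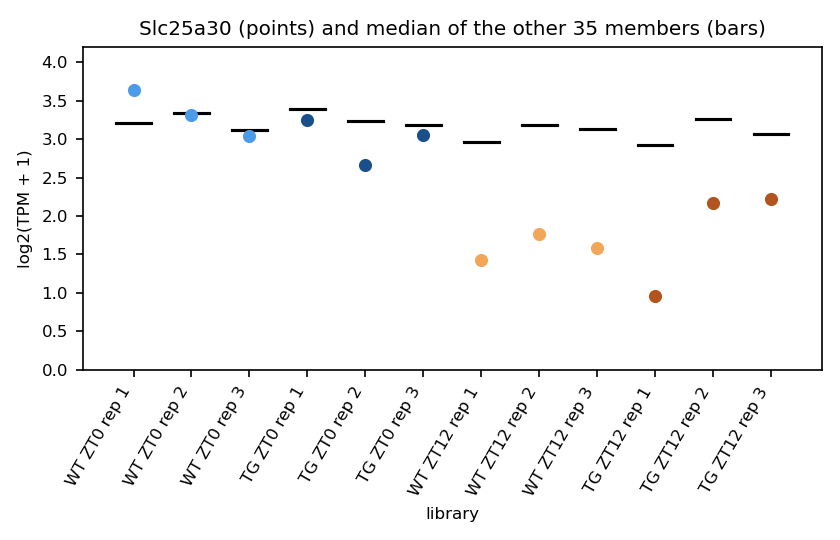
Log2(TPM + 1) of Slc25a30 in each of 12 libraries (points, coloured by group) and the median of the other 35 carriers in the same library (bars). The points fall from near the bars at ZT0 (-0.58 to 0.43 from them) to below them at ZT12 (-1.97 to -0.85).

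Of its relatives by sequence, 2 members of the family lay near 0 between the times. Slc25a14 (UCP5) was at 0.03 and Slc25a27 (UCP4) at 0.04 between the times (adjusted p = 0.991 for each in limma). Slc25a14 read 1.14, 1.25 and 0.893 TPM for WT at ZT0, 1.35, 1.10 and 1.44 for TG at ZT0, 1.22, 1.23 and 1.56 for WT at ZT12 and 1.43, 1.21 and 0.85 for TG at ZT12. Of the uncoupling proteins that lack the SLC25 symbol, Ucp3, the form found in skeletal muscle, had a value of the opposite sign (0.62, SE 0.20, 95% interval 0.19 to 1.04, limma adjusted p = 0.259) that did not pass the test, and its WT libraries were higher at ZT12 without overlap. Ucp3 stood at 23.3 ± 3.12 TPM in WT and 24.6 ± 1.4 in TG at ZT0, and at 36.5 ± 14.1 and 41.7 ± 15.9 at ZT12 (SD, n = 3). Ucp2, another of them, was at -0.29 between the times (limma adjusted p = 0.988).

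The 8 genes whose log2 values were most like those of Slc25a30 over the 12 libraries were Mylk4 (Pearson r 0.96), Tmem57 (0.95), Pfkfb4 (0.95), Rhbdl3 (0.94), Per2 (0.94), Mid1ip1 (0.94), Wipf3 (0.94) and Glul (0.93). The r is a description: the 12 points share 2 times of day, and the libraries of each of these genes were also lower at ZT12 than at ZT0 without overlap. Per2, a core clock repressor, went from 2.77 ± 0.441 TPM for WT at ZT0 to 0.336 ± 0.0434 for WT at ZT12, and from 2.37 ± 0.231 to 0.396 ± 0.161 in TG (SD, n = 3), a log2 fold change over both genotypes of -1.38 (limma adjusted p = 2.19e-05). Glul, glutamine synthetase, went from 136 ± 5.73 to 45.2 ± 3.67 TPM in WT and from 135 ± 25.9 to 46.2 ± 17.1 in TG (-1.57, limma adjusted p = 8.64e-05). Of 18 clock genes and metabolic regulators listed with them, 2 were called higher at ZT12, Nr1d1 (2.42) and Pdk4 (1.85). Called lower were 4, Per2, Per1 (-0.78), Per3 (-0.76) and Hlf (-0.75). Of all tested genes, 0.403% were called higher and 0.614% lower. The rest of the list was not called, Arntl among them (0.70, limma adjusted p = 0.0666).

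Slc25a29, which carries basic amino acids such as arginine and lysine, was the other called carrier. It lies on the minus strand at chr12:108825878-108835876 (mm10) and shares no exon with another gene. It read 5.26, 6.38 and 6.55 TPM for WT at ZT0, 4.83, 8.03 and 6.37 for TG at ZT0, 3.55, 4.34 and 3.40 for WT at ZT12 and 3.71, 4.25 and 2.41 for TG at ZT12. The 6 libraries of ZT12 lay below the 6 of ZT0, and the mean at ZT12 was 57.9% of that at ZT0. The log2 fold change was -0.65 (SE 0.14, 95% interval -0.95 to -0.35, limma adjusted p = 0.0412), from -0.57 in WT and -0.73 in TG. This call lies near the threshold. It was lost in 8 of 12 fits that left out a library, in which the limma adjusted p was 0.0532 without WT ZT0 replicate 1, 0.105 without WT ZT0 replicate 3, 0.107 without TG ZT0 replicate 2 and 0.101 without TG ZT0 replicate 3. It was 0.106, 0.0625 and 0.111 without WT ZT12 replicates 1, 2 and 3, and 0.0769 without TG ZT12 replicate 3. It was also lost under quantile normalization (0.0806) and with the red cell covariate, where the fold change was -0.94 (0.0685), and the adjusted p over 23 alternatives ran from 0.0223 to 0.111.

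A further carrier had libraries that did not overlap between the times without passing the test. This was Slc25a47, which falls outside the rule for named genes and was chosen after its values were seen. Over both genotypes, 3 carriers were lower without overlap and 0 higher, against 0.989% and 0.538% of all tested genes. Slc25a47 read 3.08, 3.25 and 2.91 TPM for WT at ZT0, 3.57, 3.54 and 2.82 for TG at ZT0, 2.21, 2.41 and 2.09 for WT at ZT12 and 1.96, 2.25 and 1.92 for TG at ZT12. Its log2 fold change was -0.42 (SE 0.09, limma adjusted p = 0.0607), on 54 to 82 reads a library. It was called in 6 of 22 alternatives, over which the limma adjusted p ran from 0.0179 to 0.545: with median-of-ratios (0.0195) and upper-quartile scaling (0.0179), limma-voom (0.0189) and the replicate block (0.0462), without WT ZT0 replicate 2 (0.0479), and without both that library and TG ZT12 replicate 1 (0.0256). Slc25a29 and Slc25a47 lie on chromosome 12 on opposite strands with starts 15253 bases apart and 1 annotated gene between.

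**Figure D4:**
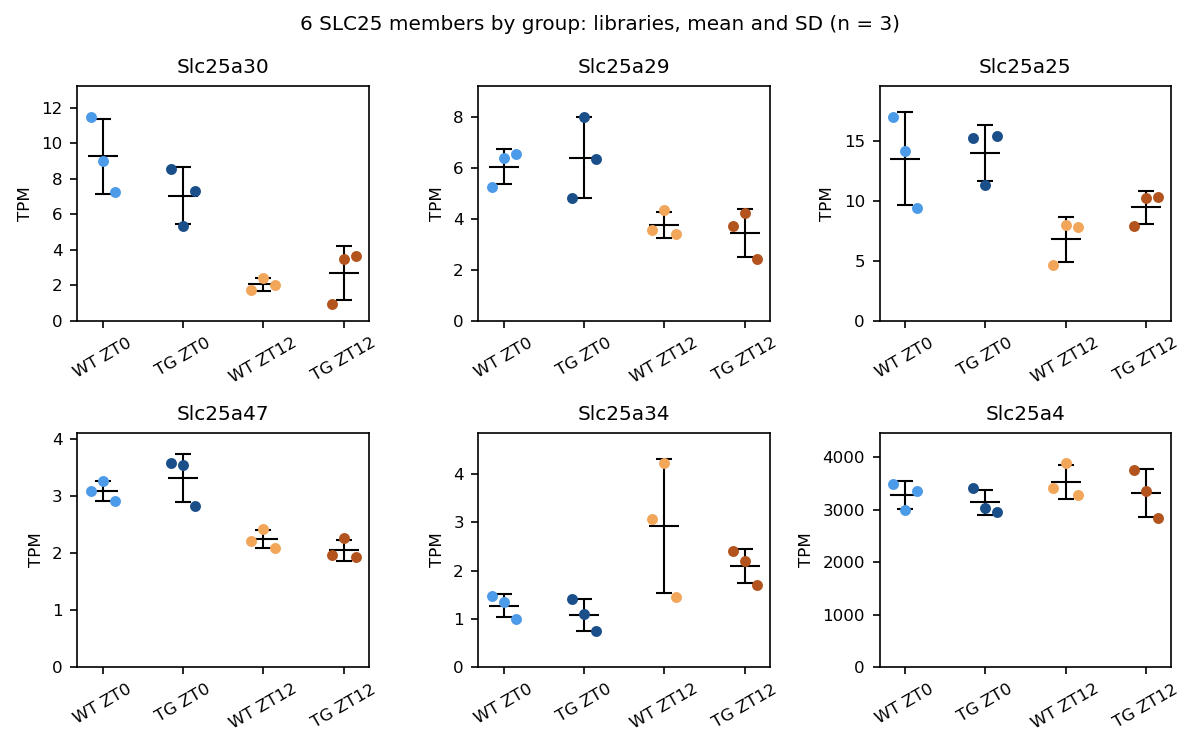
TPM of Slc25a30, Slc25a29, Slc25a25, Slc25a47, Slc25a34 and Slc25a4 by group, with 3 libraries a group as points, the mean as a bar and the SD as whiskers, each panel from 0. Slc25a30, Slc25a29 and Slc25a47 have all ZT12 points below all ZT0 points, and Slc25a4 overlaps between the groups.

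Among the carriers of adenine nucleotides and phosphate, 0 of 8 were called between the times, with a median log2 fold change of -0.03. Slc25a25, a calcium-regulated ATP-Mg/phosphate carrier, had the lowest value (-0.70, SE 0.17, limma adjusted p = 0.081). It was called in 2 of 23 alternatives, upper-quartile scaling (limma adjusted p = 0.0455) and limma-voom (0.0417), and with the red cell covariate it was -0.60 (0.999). It read 17, 14.1 and 9.36 TPM for WT at ZT0, 15.2, 11.3 and 15.4 for TG at ZT0, 4.60, 7.94 and 7.78 for WT at ZT12 and 7.87, 10.2 and 10.3 for TG at ZT12. The groups of each genotype did not overlap, but WT ZT0 replicate 3 lay under 2 TG libraries of ZT12. Its exons share 379 bases with Naif1 on the opposite strand, and the library kit did not mark strand. Slc25a5 (ANT2), the ADP/ATP carrier of many tissues, with processed pseudogenes that can share its reads, read 14.2, 38.2 and 14.2 TPM for WT at ZT0, 14.6, 14.8 and 13.5 for TG at ZT0, 11.3, 15.7 and 13.9 for WT at ZT12 and 11.9, 13.4 and 12.2 for TG at ZT12. Its 1 high value belongs to WT ZT0 replicate 2. Slc25a24, another ATP-Mg/phosphate carrier, read 1.54, 1.98 and 1.30 TPM for WT at ZT0, 1.52, 1.85 and 1.52 for TG at ZT0, 1.92, 1.95 and 1.91 for WT at ZT12 and 0.522, 1.88 and 1.33 for TG at ZT12.

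Of the 5 carriers placed under carboxylates and keto acids, 0 were called, with values from -0.47 to 0.65. The placement does not establish a substrate for each member. Slc25a34, whose substrate is not settled, had the highest value of the family (0.65, SE 0.17, limma adjusted p = 0.115). It read 1.47, 1.35 and 1.00 TPM for WT at ZT0, 1.41, 1.10 and 0.739 for TG at ZT0, 3.06, 4.23 and 1.46 for WT at ZT12 and 2.40, 2.19 and 1.70 for TG at ZT12. WT ZT12 replicate 3 alone, at 1.46 TPM, reached into the ZT0 range. Red cell markers were near the ZT0 level in that library and in TG ZT12 replicate 3. These 2 read 1.46 and 1.70 TPM, and the 4 other ZT12 libraries 2.19 to 4.23. Slc25a34 was called in 3 of 22 alternatives: without WT ZT12 replicate 3 (0.78, limma adjusted p = 0.033), with upper-quartile scaling (0.0479) and with the replicate block (0.0295). With the red cell covariate its value was 0.26 (limma adjusted p = 0.999). Slc25a10, the dicarboxylate carrier, read 1.80, 4.70 and 1.80 TPM for WT at ZT0, 1.19, 2.28 and 1.40 for TG at ZT0, 1.25, 1.51 and 1.37 for WT at ZT12 and 0.882, 1.53 and 2.24 for TG at ZT12. Slc25a1, the citrate carrier, read 3.76, 9.15 and 4.18 TPM for WT at ZT0, 2.65, 7.76 and 4.01 for TG at ZT0, 2.62, 3.44 and 3.45 for WT at ZT12 and 1.91, 3.94 and 4.64 for TG at ZT12. Both carriers were highest in WT ZT0 replicate 2, TG ZT0 replicate 2 and TG ZT12 replicate 3. In these 3 libraries the 6 adipocyte markers summed to 379, 300 and 363 TPM, against 57.8 to 178 in the others, and their part in the values was not tested.

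The 10 carriers placed under amino acids, carnitine and glutathione, Slc25a47 among them, had a median of -0.02, with 1 called, Slc25a29. Here too the placement does not establish a substrate for each member. Slc25a22, a glutamate carrier, had the second highest value of the family (0.31, SE 0.18, limma adjusted p = 0.858) and read 2.47, 4.90 and 2.20 TPM for WT at ZT0, 2.31, 3.07 and 2.77 for TG at ZT0, 3.90, 5.20 and 2.85 for WT at ZT12 and 2.82, 5.06 and 3.40 for TG at ZT12. Slc25a20, the carnitine/acylcarnitine carrier of fatty acid oxidation, read 24.6, 28.3 and 23.5 TPM for WT at ZT0, 30.6, 27.5 and 24.7 for TG at ZT0, 29.8, 34.5 and 24.4 for WT at ZT12 and 23.4, 29.2 and 22.9 for TG at ZT12. Slc25a44, which carries branched-chain amino acids, stood at 11.4 ± 2.5, 10 ± 1.78, 9.86 ± 0.548 and 9.86 ± 2.7 TPM for WT at ZT0, TG ZT0, WT ZT12 and TG ZT12.

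Among nucleotide and cofactor carriers, 0 of 7 were called, with values from -0.07 to 0.26. Slc25a36, a pyrimidine nucleotide carrier, was the highest of them (0.26, SE 0.19, limma adjusted p = 0.968), went to 0.42 and 0.15 without TG ZT12 replicates 1 and 2, and was called without both TG ZT12 replicate 1 and WT ZT0 replicate 2 (0.54, limma adjusted p = 0.0127). It read 3.34, 5.33 and 3.09 TPM for WT at ZT0, 4.83, 3.79 and 3.42 for TG at ZT0, 5.04, 5.52 and 4.43 for WT at ZT12 and 2.58, 7.34 and 5.52 for TG at ZT12. Slc25a51, the NAD carrier, stood at 21.5 ± 1.36, 20.9 ± 2.85, 22 ± 2.03 and 20.6 ± 4.29 TPM for WT at ZT0, TG ZT0, WT ZT12 and TG ZT12. Slc25a26, which carries S-adenosylmethionine, was the steadiest carrier, with a coefficient of variation of 6.64%. The 2 iron carriers were not called either: Slc25a28 (mitoferrin 2) was at -0.02 and Slc25a37 (mitoferrin 1), which supplies iron for haem in red cell precursors, at 0.13. Slc25a37 read 3.41 to 8.10 TPM in the 4 ZT12 libraries with high red cell markers and 3.90 to 5.52 in the other 2. Slc25a46, an outer membrane protein of mitochondrial dynamics, was at 0.14.

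Read in each genotype alone, 0 of 36 carriers were called between the times in WT (0.115% of all tested genes) and 0 in TG (0.154%). At an unadjusted p under 0.05 there were 5 and 6 carriers, against 4.65% and 3.53% of all tested genes, and limma-voom on recovered reads called 1 in WT, Slc25a30, and 0 in TG. Carriers whose groups did not overlap numbered 2 higher and 6 lower in WT (background 5.62% and 5.20%) and 2 higher and 6 lower in TG (3.21% and 3.87%). Slc25a30, Slc25a29, Slc25a25 and Slc25a47 were lower without overlap in both genotypes. The WT and TG comparisons share no library, and 27 of 36 carriers had the same sign in both, 15 higher and 12 lower, against 64.5% of all tested genes.

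**Figure D5:**
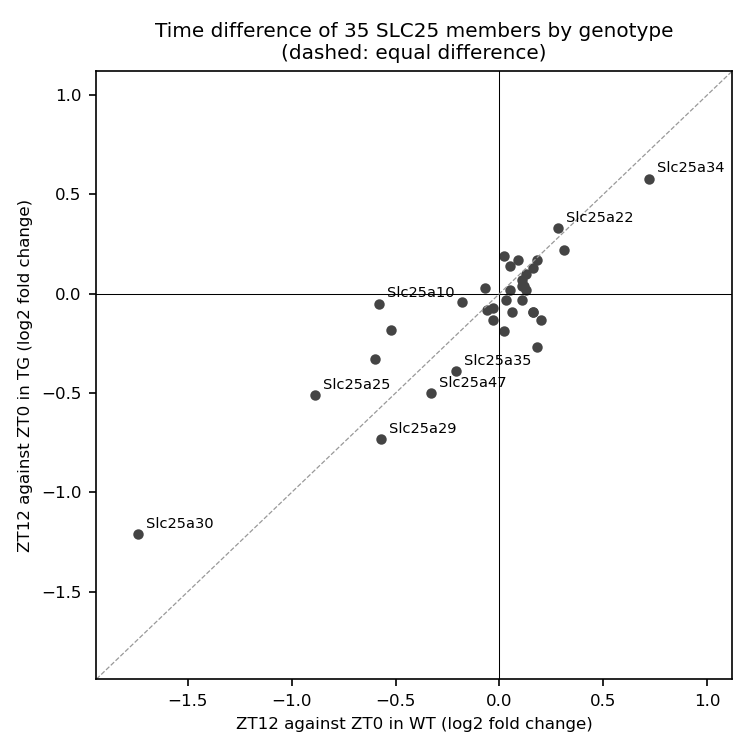
Log2 fold change of ZT12 against ZT0 in TG against that in WT for 35 of the 36 carriers, each from 3 against 3 libraries, with the line of equal difference dashed. Slc25a30 lies lowest in both genotypes (-1.74 in WT, -1.21 in TG) and Slc25a34 highest (0.72 and 0.58).

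No carrier was called in muscle between the genotypes. TG against WT, 0 of 36 carriers were called at ZT0, at ZT12 or over both times, and 0 in the interaction of genotype and time, where 0% of all tested genes were called as well. No carrier had an unadjusted p under 0.05 in these 4 comparisons (1.12%, 0.951%, 1.59% and 0.663% of all tested genes did), and limma-voom on recovered reads called 0 as well. The median log2 fold change of the carriers was -0.05 at ZT0 and -0.09 at ZT12, beside -0.10 and -0.07 over all tested genes. Groups did not overlap for 1 carrier higher at ZT0 (Slc25a11, 0.10) and 0 lower (background 1.40% and 3.22%). At ZT12 they did not overlap for 0 higher and 5 lower, among them Slc25a38, Slc25a35, Slc25a26 and Slc25a24 (0.528% and 4.26%). These comparisons of 3 against 3 libraries had a median SE of 0.16. Exons of 10 carriers share bases with a gene on the opposite strand, and the library kit did not mark strand. Of the carriers named here, Slc25a35 shares 1151 bases with Rangrf, Slc25a11 189 with Rnf167 and Slc25a26 144 with Lrig1.

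The carriers of highest and lowest value between the genotypes over both times were Slc25a25 (0.26), Slc25a39 (0.05) and Slc25a3 (0.05) above 0, and Slc25a5 (-0.28), Slc25a24 (-0.21) and Slc25a34 (-0.21) below it, each with a 95% interval that includes 0. All 6 values moved by more than 1.5 times on leaving out 1 library, and that of Slc25a39 changed sign. Slc25a25 went to 0.14 without WT ZT12 replicate 1, Slc25a39 to -0.02 and Slc25a3 to 0.01 without TG ZT12 replicate 2, Slc25a5 to -0.05 without WT ZT0 replicate 2, Slc25a24 to -0.07 without TG ZT12 replicate 1 and Slc25a34 to -0.09 without WT ZT12 replicate 2. Slc25a30 was at -0.35 (95% interval -1.01 to 0.32) at ZT0 and 0.18 (-0.48 to 0.85) at ZT12, and the value at ZT0 went to -0.18 without TG ZT0 replicate 2. In the interaction, Slc25a30 (0.53), Slc25a10 (0.52) and Slc25a25 (0.38) had the highest values and Slc25a24 (-0.45), Slc25a20 (-0.33) and Slc25a14 (-0.25) the lowest, at a limma adjusted p of 1. These 6 also moved by more than 1.5 times on leaving out 1 library: Slc25a10 went to 0.18 without WT ZT0 replicate 2, Slc25a25 to 0.16 without WT ZT12 replicate 1, Slc25a24 to -0.20 without TG ZT12 replicate 1, Slc25a20 to -0.21 without WT ZT12 replicate 2 and Slc25a14 to -0.15 without TG ZT12 replicate 3, with the values of Slc25a30 given above. In the authors' deposited table, the smallest p-value of a carrier was 0.384 at ZT0 (Slc25a11) and 0.321 at ZT12 (Slc25a25), with 0 carriers under 0.05 at either time.

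Other genes of mitochondrial transport were not called between the times. The 4 lists held 33 genes, of which 29 were tested. The lists were relatives of the family without its symbol, other inner membrane transporters, outer membrane pores and the import path of the carriers. Between the times over both genotypes 0 were called, against 1.02% of all tested genes, with a median of -0.01. Between the genotypes over both times 0 were called, against 0% of all tested genes, with a median of -0.04. A count of 0 does not set these genes apart from all tested genes. The pores Vdac1, Vdac2 and Vdac3, which let metabolites through the outer membrane, were at -0.11, -0.04 and -0.003 between the times. Mpc2, a subunit of the pyruvate carrier, was at 0.03 and stood at 258 ± 41.8 TPM for WT at ZT0 and 268 ± 16.1 for WT at ZT12 (SD, n = 3). Mcu, the calcium uniporter, was at 0.04, and Tomm70a, the receptor that takes carriers up at the outer membrane, at 0.03.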

How the data were processed

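The deposited table holds TPM per gene, made by the authors for the 12 libraries. WT ZT0 replicate 1 has 1 TPM or more for every gene in it, so genes low there are not analysed. Genes high there and low at ZT12 are kept, while the reverse are missing. This can tilt counts between the times toward lower at ZT12. Tools named in the submitters' processing notes are STAR, HOMER 4.11.1, DESeq2 and bcl2fastq, on mm10. Per the file headers, HOMER counted exon reads for 2 further tables, which hold per-library log2 values, the authors' log2 fold changes and p-values, and transcript lengths. Those tables list 47 SLC25 symbols, of which 11 are outside the TPM table.

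TPM times length, divided by a unit chosen for each library to give whole reads, set the depth as a sum over the listed genes. Of values under 500 reads, the only ones judged, nearly all were whole within 0.1 read. limma 3.58.1 (trend, R 4.3.3) was fitted to log2(TPM + 1) for genes that reached 1 TPM in 3 or more libraries, as 4 group means for 5 contrasts and as genotype plus time for the other 2, with Benjamini-Hochberg adjustment over all 10415 genes and a threshold of 0.05. The code was tested on simulated data. Plots used Python 3.11.15 and matplotlib 3.10.9. The carriers, the additive model, the lists and the rule for named genes were chosen with earlier results of these data known. That rule took Slc25a30, called carriers, the 5 most abundant, and the 3 highest and 3 lowest changes in the additive comparisons and the interaction. Marker lists had 0 called genes between the times over both genotypes, which does not show that they were steady. The median log2 fold change was 3.11 for red cells (5 of 5 above 0), 0.26 for slow fibre (8 of 9), 0.13 for fibro-adipogenic cells (5 of 5), 0.19 for endothelium (4 of 5), 0.01 for macrophages (2 of 4), -0.20 for adipocytes (0 of 6) and -0.17 for smooth muscle (0 of 4). In WT alone slow fibre was at 0.53 (9 of 9), and in TG alone at 0.16 (5 of 9). The values of 1 carrier and 1 marker gene are not reported here by name or in the plots, but count in the totals. A lymphocyte list was tried after values were seen and dropped, since few of its genes were listed. Alternatives covered scaling, filter, pseudocount, voom on recovered reads, a red cell covariate, the replicate block and left-out libraries.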

Additional observations from a re-analysis of the deposited data

How the results depend on the processing

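Between the times over both genotypes, 2 carriers were called. The count was 5 with upper-quartile scaling, 1 with quantile normalization, 4 with limma-voom on recovered reads, 0 with the red cell covariate, 5 without both TG ZT12 replicate 1 and WT ZT0 replicate 2, and 1 to 3 without 1 library. With the replicate block it was 4. Residuals of 18 same-numbered pairs correlated at -0.35 to 0.29. The median r was 0.06 in these pairs and -0.02 between libraries of unequal number. Of 12 libraries, 5 matched their own number best. Such small values cannot decide whether equal numbers share a batch, and the labels name none. The block changed no count of called carriers in the other 6 comparisons. In WT alone, where 0 were called, 1 (Slc25a30) was called with median-of-ratios, upper-quartile and quantile scaling, a pseudocount of 5, the 2 groups alone, voom and without both libraries, and 0 to 1 without 1 library. In the other 5 comparisons the count was 0 throughout.

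Over all genes, 106 calls between the times (42 higher, 64 lower) became 233, 220 and 217 with the 3 scalings, 217 with voom, 24 with the red cell covariate (6 higher, 18 lower) and 464 without both libraries (365 higher, 99 lower). The 12 calls in WT became 55, 47 and 52 with the scalings, 56 with voom, 5 with the covariate, 72 without both libraries and 4 to 35 without 1 library. The 16 in TG became 31, 29 and 33, then 28, 5 and 71, 6 to 21 without 1 library, and 3 with the 2 groups alone. Quantile normalization moved the median of all genes for TG against WT at ZT0 from -0.10 to 0.03.

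Signs turned only for uncalled values near 0. Slc25a39, TG against WT over both times, (0.05) was -0.02 to 0.10 without 1 library, the lowest without TG ZT12 replicate 2. Slc25a30, TG against WT at ZT12, (0.18) was -0.01 and -0.04 without TG ZT12 replicates 2 and 3, and up to 0.59 without 1 library. Slc25a30 over both times (-0.08) was -0.21 to 0.07 without 1 library, 0.03 with quantile normalization, 0.12 without both libraries, and 0.01, 0.02 and 0.07 without WT ZT0 replicate 1, TG ZT0 replicate 2 and TG ZT12 replicate 1. The lowest carriers rest on few reads, from 18 a library for Slc25a14 and 29 for Slc25a30.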

Other observations

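The authors' deposited tables hold 11 SLC25 symbols that the TPM table does not. All 6 libraries were listed at 0 for 9 of them at ZT0 and 10 at ZT12. Slc25a45 had values at both times and Slc25a53 at ZT0, with p-values in the authors' deposited table of 0.416 and 0.549 at ZT0, and 0.756 for Slc25a45 at ZT12.

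Ucp2, an uncoupling protein of many cell types, was at 38.4 ± 50.1 TPM (SD, n = 3) in WT ZT0 and at 8.34 ± 0.132 in TG ZT0, 11.4 ± 2.96 in WT ZT12 and 11 ± 5.35 in TG ZT12. The SD in WT ZT0 exceeded the mean. The log2 fold change of Ucp2 between the times was -0.86 in WT (95% interval -2.32 to 0.60) and 0.28 in TG (-1.19 to 1.74). Over both genotypes it was -0.29 (limma adjusted p = 0.988). Ucp2 was named after its values were seen.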
